A study of Mus musculus with 24 samples.

Results

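The genes described here are 10 modulators of muscle differentiation of the basic helix-loop-helix class: the 4 inhibitors of DNA binding (Id1, Id2, Id3, and Id4), the 3 E proteins (Tcf3, Tcf4, and Tcf12), and 3 repressive tissue-restricted factors (Twist1, Twist2, and Msc). They were chosen by name, with no measured value in the rule, and all 10 were found among the 56941 genes of the deposited tables. The RNA came from muscle tissues grown from the mouse myoblast line C2C12, whose cells fuse into contractile fibers, here 1 line in which every cell, controls included, carried the blue light-gated channel ChR2 joined to tdTomato. Tissues were differentiated on fibrin hydrogels for about 2 weeks. They received no light stimulation (control) or daily light for 30 min at 1, 4, or 10 Hz. There were 6 libraries per condition and 24 in all. All tissues, controls included, were also stimulated electrically during culture to check that they contracted. The study reports spontaneous twitching in every condition and describes its controls as not necessarily unexercised. It also names fatigue at the highest frequency as a possibility, with tissues then not contracting for much of the training. No group lacked ChR2 or received light that could not drive contraction, so light and contraction cannot be told apart. All 3 stimulated conditions were set against the same 6 control libraries.

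E proteins are broadly expressed factors that pair with the muscle factors MyoD and myogenin, and the pair binds E-boxes (CANNTG) of muscle genes. Id proteins have the pairing domain and no DNA-binding region. They take E proteins away from MyoD, keep myoblasts from differentiating, and are known in muscle as targets of bone morphogenetic protein (BMP) signaling. Twist1, Twist2, and Msc (also called MyoR) also pair with E proteins and occupy or withhold the sites that MyoD would use.

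Libraries held 4.09 to 15.2 M (mega) estimated counts. Levels between libraries are given as CPM, a gene's share of its library after TMM scaling, and levels between genes as TPM, which is corrected for transcript length. A gene was counted as changed when edgeR's quasi-likelihood test gave a Benjamini-Hochberg adjusted p below 0.05 over the 13318 genes tested and a log2 fold change beyond 0.5. The filter on low counts left 8 of the 10 members in that test, without Id4 and Twist1. The summed level of 24 small RNA genes whose transcripts carry no poly(A) tail was 98.2 to 169 CPM in control, 15.6 to 70.2 CPM at 1 Hz, 19.4 to 51.1 CPM at 4 Hz, and 38.5 to 274 CPM at 10 Hz. Control libraries therefore did not overlap those at 1 or 4 Hz in this measure of library make-up, while the 1 Hz libraries overlapped those at 4 Hz. The overlap of 1 Hz with 10 Hz came from 1 Hz replicate 1 alone (70.2 CPM), and the medians were 20.8 and 105 CPM. In bulk RNA, fewer cells of a type and less RNA per cell cannot be told apart.

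RefSeq promoter windows (GRCm39, the 250 bases before each start) were at hand for 7 of the 10 members and were searched on both strands for CANNTG, the E-box, for GGCGCC, a GC-rich element bound by BMP-activated Smads, and for TGACG, the half-site of the cAMP response element. No window was at hand for Id1, Tcf4, or Msc. The stretches below are shown because the results turn on the Id genes, with matches in capitals. The Id4 stretch lies upstream of every annotated exon, and the Id2 and Id3 stretches of 30 bases lie within first exons of longer annotated transcripts.
Id4, chr13:48414342-48414557, plus strand, from 250 bases before the start: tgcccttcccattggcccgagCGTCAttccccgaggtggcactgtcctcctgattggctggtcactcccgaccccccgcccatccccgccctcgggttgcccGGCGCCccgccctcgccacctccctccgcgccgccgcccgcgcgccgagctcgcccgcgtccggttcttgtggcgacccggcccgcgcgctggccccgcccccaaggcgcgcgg
Id2, chr12:25146270-25146299, minus strand, from 208 bases before the start: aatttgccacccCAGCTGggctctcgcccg
Id3, chr4:135870951-135870980, plus strand, from 182 bases before the start: cgctgtcctcggCGTCAgaccagcctaagg
The Id4 window held 1 GGCGCC and 1 TGACG and no CANNTG. The Id2 window held 1 CANNTG and 1 GGCGCC, and the Id3 window held 1 TGACG alone. Of all 32851 windows of this length, 66.2% held CANNTG, 9.59% held GGCGCC, and 17.8% held TGACG. Tcf3 held 1 CANNTG, 2 of the 3 Tcf12 windows held 1 each, and Twist1 and Twist2 held no CANNTG. The Twist1 window, of a gene near zero here, held 1 TGACG.

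In control, Id1, Id2, Id3, and the E proteins were of like level, and Id4 and the Twist class were far lower. Per length, Id2 stood at 44.5 ± 5.19 TPM (SD, n = 6), Id3 at 37.5 ± 10.1, Id1 at 35.2 ± 9.70, Tcf12 at 33.7 ± 4.88, Tcf3 at 29.4 ± 3.47, and Tcf4 at 22.5 ± 3.87 TPM. Twist2 followed at 3.69 ± 0.728 TPM, Msc at 2.18 ± 1.32, Id4 at 0.592 ± 0.270, and Twist1 at 0.0295 ± 0.0724 TPM. The control ranges of neighbors in this order overlapped, except between Tcf4 and Twist2 and between Id4 and Twist1. Over all 24 libraries Id3 (37.7 TPM), Id1 (37.6 TPM), and Id2 (35.9 TPM) were nearly level, with means of Id1 and Id3 above control and of Id2 below it at 4 and 10 Hz.

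No member was counted as changed against control at any frequency. This was 0 of 8 at 1 Hz, where 18.3% of all genes tested were counted, 0 of 8 at 4 Hz against 20.1%, and 0 of 8 at 10 Hz against 1.86%. Differences between frequencies did pass the test, in Id1 and Id3. Against 1 Hz, both were higher at 4 Hz (2 of 8 members, where 3.00% of all genes were counted and 1.59% were higher) and both were higher at 10 Hz (2 of 8 members, where 17.9% were counted and 9.45% were higher). Between 4 and 10 Hz none of 8 was counted, where 11.0% of all genes were. The median log2 fold change over the 8 members stayed between -0.07 and 0.09 in all 6 comparisons, against medians of -0.01 to 0.01 over all genes.

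Id3 (chr4:135870808-135873066, plus strand, 3 exons) gave the widest step between frequencies among the 8 members in the main test. The control libraries read 21.0, 35.7, 26.3, 38.5, 26.9, and 22.4 CPM. At 1 Hz they read 26.6, 15.3, 16.1, 20.6, 26.7, and 25.3 CPM. At 4 Hz they read 33.4, 35.5, 34.0, 40.3, 31.3, and 51.6 CPM. All 6 libraries at 4 Hz were above all 6 at 1 Hz, while control lay across both groups. At 10 Hz they read 29.5, 25.8, 26.0, 46.1, 32.0, and 39.8 CPM, with 4 of 6 above the highest 1 Hz library. The log2 fold change of 4 Hz against 1 Hz was 0.80 ± 0.174 (SE, edgeR adjusted p = 0.003819), and groups that do not overlap were found for 5.70% of genes in that comparison. At 10 Hz against 1 Hz it was 0.61 ± 0.175 (edgeR adjusted p = 0.008338), and it fell inside the fold limit, at 0.49, without 10 Hz replicate 4. Against control the difference was -0.40 at 1 Hz (adjusted p = 0.0855), 0.40 at 4 Hz (adjusted p = 0.06767), and 0.21 at 10 Hz (adjusted p = 0.5326). The steps at 1 and 4 Hz pointed to opposite sides of control, and of these values only their difference passed. With the small RNA level as a covariate they were -0.65 (adjusted p = 0.4322) and 0.15 (adjusted p = 0.8288).

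Id1 (chr2:152566218-152579544, plus strand, 2 exons) followed Id3. Its control libraries read 13.4, 25.2, 16.0, 23.9, 17.9, and 16.7 CPM, and those at 1 Hz read 15.6, 10.9, 13.1, 23.6, 16.3, and 19.3 CPM. Control and 1 Hz covered nearly the same range. At 4 Hz the libraries read 23.3, 28.9, 20.8, 26.3, 22.6, and 35.6 CPM, and at 10 Hz they read 22.3, 19.4, 22.9, 32.8, 24.3, and 30.8 CPM. In each of the 2 faster conditions 3 of 6 libraries were above every 1 Hz library. The log2 fold change against 1 Hz was 0.67 ± 0.174 at 4 Hz (edgeR adjusted p = 0.0128) and 0.62 ± 0.175 at 10 Hz (edgeR adjusted p = 0.007367). Against control, 4 Hz gave 0.47 ± 0.175 with an adjusted p of 0.03313, just inside the fold limit, and 10 Hz gave 0.42 with an adjusted p of 0.1607. Without control replicate 2 or 4, or 4 Hz replicate 1, 3, or 5, the 4 Hz value passed both limits, at 0.51 to 0.58. With the small RNA level as a covariate it was 0.0425 (adjusted p = 0.9574).

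The steps of Id1 and Id3 against 1 Hz were also read with the small RNA level as a covariate. At 4 Hz against 1 Hz they were 0.69 for Id1 (edgeR adjusted p = 0.007402) and 0.80 for Id3 (adjusted p = 0.00349), as large as without it. At 10 Hz against 1 Hz, Id1 stood at 1.00 (adjusted p = 0.03384) and Id3 at 0.82 (adjusted p = 0.0876), so Id3 was no longer counted. Their transcripts were richer in G and C (54.4% for Id1 and 55.6% for Id3) than that of Id2 (46.9%), and a correction for GC content and length, chosen after seeing the data, left all 4 steps counted at 0.53 to 0.70.

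**Figure D1:**
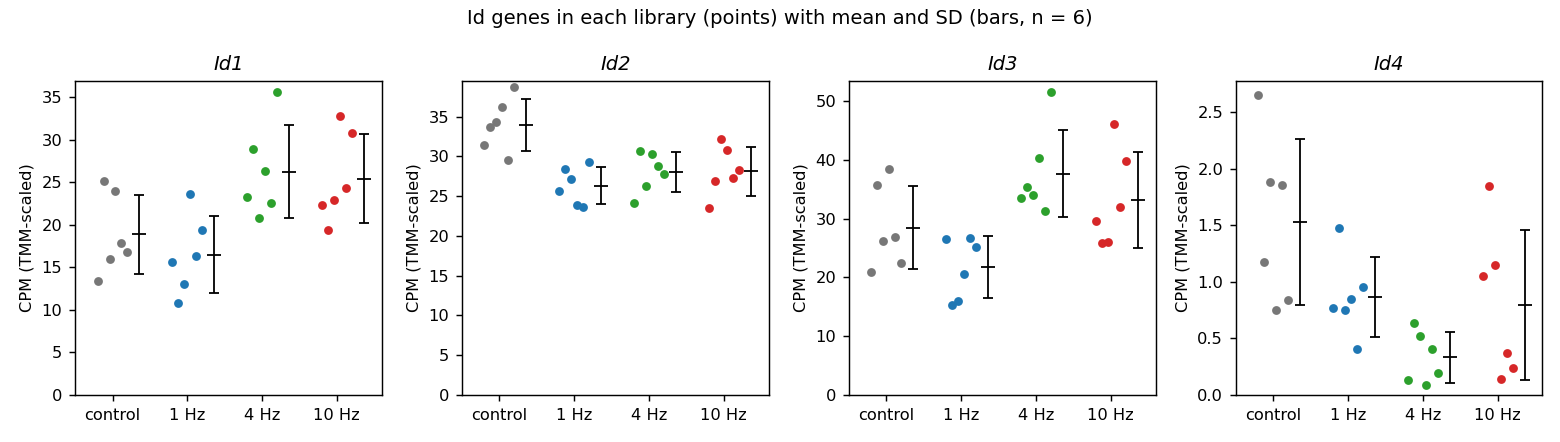
CPM of Id1, Id2, Id3, and Id4 (vertical axes, each from 0) in every library of control, 1, 4, and 10 Hz, with points for libraries and bars for the mean and SD of 6. Id3 at 4 Hz (31.3 to 51.6 CPM) sits wholly above 1 Hz (15.3 to 26.7 CPM), Id2 is highest in control, and Id4 is lowest at 4 Hz.

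Id2 (chr12:25143798-25147282, minus strand, 3 exons), whose protein can also bind the retinoblastoma protein, took another course. Its control libraries read 31.4, 33.7, 34.3, 36.2, 29.5, and 38.7 CPM. At 1 Hz they read 25.6, 28.4, 27.2, 23.9, 23.6, and 29.3 CPM. Every 1 Hz library was below every control library, a separation that 13.1% of genes showed in this comparison. At 4 Hz they read 24.1, 30.7, 26.3, 30.3, 28.8, and 27.8 CPM, and at 10 Hz 23.5, 26.9, 32.1, 30.9, 27.3, and 28.3 CPM. At 4 Hz 4 of 6 libraries lay below the control range. The log2 difference from control was -0.37 ± 0.0904 at 1 Hz (edgeR adjusted p = 0.002571), -0.28 ± 0.0892 at 4 Hz (adjusted p = 0.01535), and -0.27 at 10 Hz (adjusted p = 0.07233). The first 2 passed on p and not on size, as 35.4% and 39.4% of genes passed on p in those comparisons. The differences between frequencies were 0.09 at 4 Hz against 1 Hz (95% interval -0.09 to 0.28) and 0.10 at 10 Hz against 1 Hz (95% interval -0.09 to 0.28). With the small RNA level as a covariate the 1 Hz value was -0.45 with an adjusted p of 0.2877. Since control and 1 Hz libraries did not overlap in small RNA, the frequency and that feature of the libraries cannot be told apart for Id2.

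Id4 (chr13:48414558-48419502, plus strand, 3 exons) was scarce. Control libraries held 4 to 14 counts and those at 4 Hz 1 to 6 counts, or 52 and 17 counts in all. The control libraries read 2.65, 1.17, 1.89, 0.752, 1.86, and 0.837 CPM. At 1 Hz they read 0.771, 1.48, 0.749, 0.847, 0.407, and 0.955 CPM, and at 4 Hz 0.135, 0.637, 0.524, 0.0903, 0.410, and 0.197 CPM. Every 4 Hz library was below every control library, and 16.6% of the genes tested did not overlap in that comparison. The mean fell from 1.53 ± 0.735 to 0.332 ± 0.224 CPM (2-sided exact permutation p = 0.00216, the smallest that 6 against 6 allow, and 0.013 adjusted over 6 comparisons). At 4 Hz against 1 Hz the exact permutation p was 0.0108 (0.0324 adjusted), while edgeR with no filter gave -1.32 with an adjusted p of 0.2086. In edgeR with no filter on counts, 4 Hz against control gave a log2 fold change of -2.12 ± 0.523 with an adjusted p of 0.002375. The gene lies near the limit of the count filter, which a high control group helps it to pass, so these values stand apart from the main test. At 10 Hz the libraries split. Replicates 1, 2, and 3 read 1.05, 1.84, and 1.15 CPM, and replicates 4, 5, and 6 read 0.137, 0.368, and 0.236 CPM. The small RNA level ran alongside, at 178, 274, and 112 CPM in the first 3 and 98.6, 67.6, and 38.5 CPM in the last 3, and it was lower at 4 Hz than in control. At 1 Hz it was about as low as at 4 Hz (15.6 to 70.2 and 19.4 to 51.1 CPM), where Id4 read 0.868 ± 0.352 against 0.332 ± 0.224 CPM. Its part in the Id4 result was not tested.

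**Figure D2:**
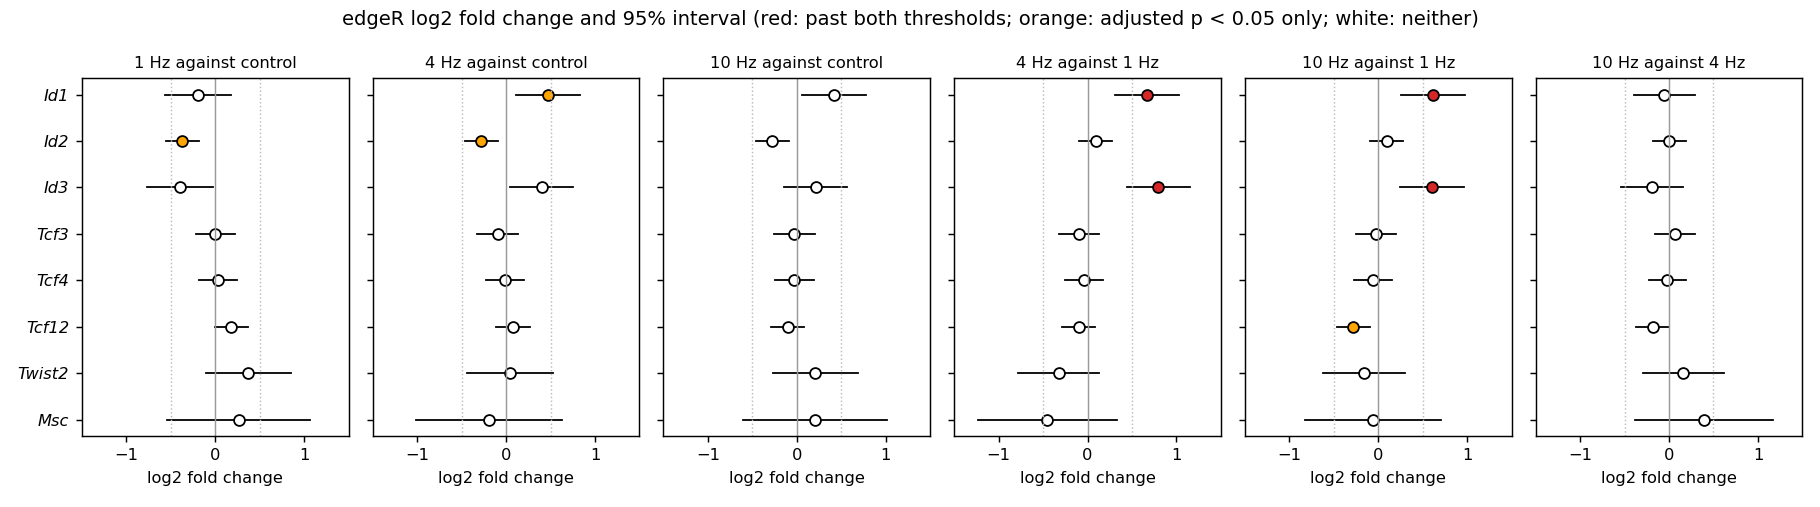
Log2 fold change (horizontal axis) with its 95% interval for the 8 members tested, in each of the 6 comparisons. Red points passed both limits, orange points passed the adjusted p alone, and dotted lines mark the fold limit of 0.5. The red points are Id1 and Id3 at 4 Hz against 1 Hz (0.67 and 0.80) and at 10 Hz against 1 Hz (0.62 and 0.61).

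The E proteins moved little. Tcf3 (E2A, chr10:80244046-80269594, minus strand, 19 exons), a partner of MyoD, read 52.3 ± 5.70 CPM in control, 52.4 ± 9.37 at 1 Hz, 49.0 ± 6.63 at 4 Hz, and 51.4 ± 6.19 at 10 Hz (SD, n = 6). Its log2 differences from control were 0.00 (95% interval -0.22 to 0.22), -0.09 (-0.32 to 0.13), and -0.03 (-0.26 to 0.20). Tcf4 (E2-2, 20 exons; not the Wnt effector of the same alias) read 59.3 ± 5.53, 60.6 ± 5.83, 59.0 ± 7.40, and 58.3 ± 10.4 CPM in the same order. Its differences from control lay at 0.03 (-0.19 to 0.24), -0.01 (-0.22 to 0.21), and -0.03 (-0.24 to 0.19). For both genes the intervals lay within the fold limit on each side.

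Tcf12 (HEB, chr9:71749970-72019177, minus strand, 14 exons), which also pairs with MyoD, varied somewhat more. The control libraries read 80.6, 83.7, 90.3, 80.6, 91.3, and 110 CPM. At 1 Hz they read 92.7, 110, 114, 95.1, 97.3, and 96.5 CPM, and at 10 Hz 71.1, 77.3, 87.5, 84.2, 96.7, and 82.7 CPM. The 1 Hz libraries were the highest group and the 10 Hz libraries the lowest, with 5 of 6 at 10 Hz below every 1 Hz library. The log2 difference of 10 Hz against 1 Hz was -0.28 ± 0.0907 (edgeR adjusted p = 0.01707), inside the fold limit, where 36.3% of genes passed on p. With the small RNA covariate it was -0.25, about as large, with an adjusted p of 0.3628. At 4 Hz the mean was 94.3 ± 11.3 CPM, and no difference of Tcf12 from control passed.

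Twist1 (chr12:34007645-34009828, plus strand, 2 exons) was at or near zero in these cultures. It had 6 counts over 24 libraries, never more than 1 in a library, and 18 libraries at 0, all 6 at 4 Hz among them. A count of 0 allows up to 3 counts, which is 0.241 to 0.739 CPM at the depth of those libraries, and covers counting error only. Twist2 (chr1:91729176-91796542, plus strand, 2 exons) was the member of this class with the highest level. It read 2.99 ± 0.621 CPM in control, 3.80 ± 1.21 at 1 Hz, 3.06 ± 1.01 at 4 Hz, and 3.45 ± 0.706 at 10 Hz. Msc (chr1:14823503-14826266, minus strand, 2 exons) read 1.54 ± 0.786, 1.85 ± 0.707, 1.36 ± 0.586, and 1.85 ± 0.744 CPM in that order. Neither passed in any comparison, and the depth limits what could be seen. The 95% interval of Msc at 4 Hz against control ran from -1.01 to 0.63, and that of Twist2 at 1 Hz against control from -0.11 to 0.85.

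**Figure D3:**
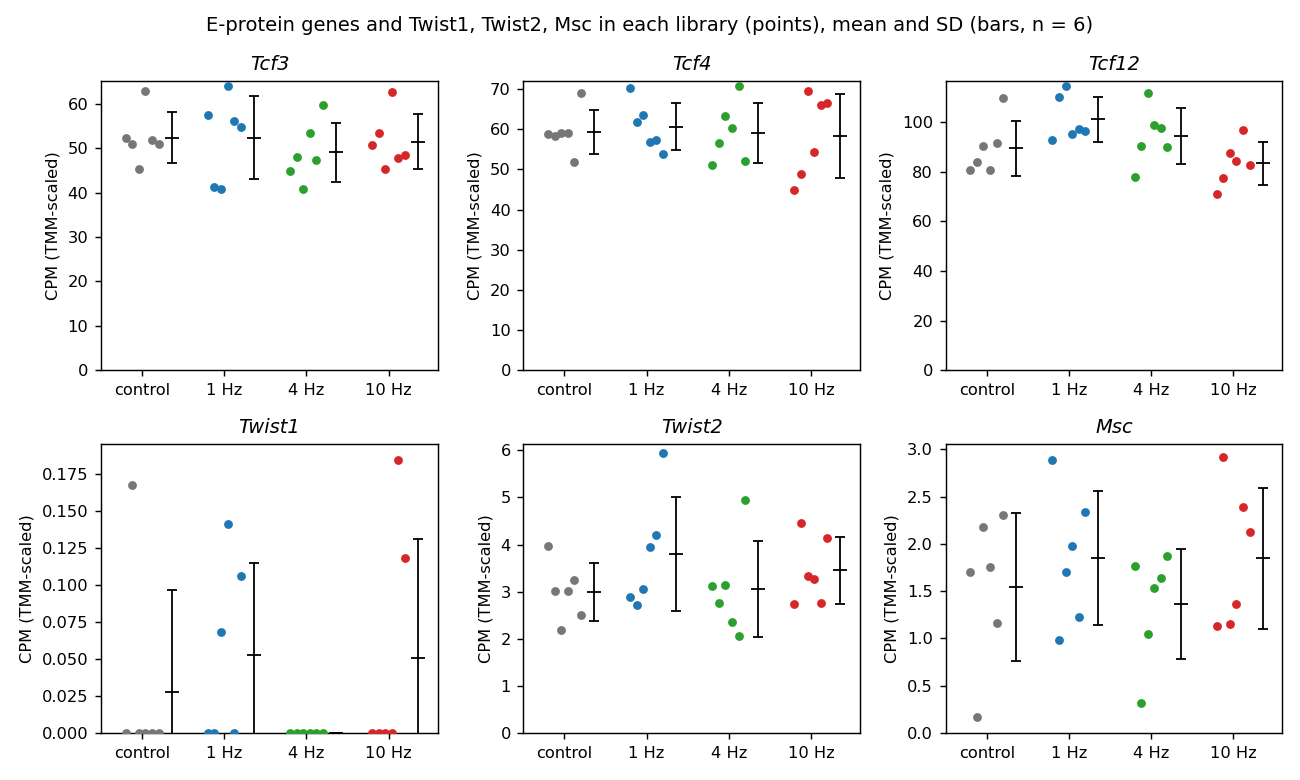
CPM of Tcf3, Tcf4, Tcf12, Twist1, Twist2, and Msc (vertical axes, each from 0) by library and condition, with points for libraries and bars for the mean and SD of 6. The conditions overlap for every gene shown, Tcf12 is highest at 1 Hz (101 CPM) and lowest at 10 Hz (83.2 CPM), and Twist1 is at 0 in 18 of 24 libraries.

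The members Id2, Id3, Id4, Twist2, and Msc each share a position with an antisense long noncoding RNA that the tables also count: Id2 with Gm36287, Id3 with Gm57159, Id4 with Gm49291, Twist2 with Gm29100, and Msc with Gm9947. It is not stated in the sources used here whether reads were counted by strand, so reads of each pair may have been shared.

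Summed per length, the Id pool and the E-protein pool were of like size. The 4 Id genes came to 118 ± 22.0 TPM in control, 89.6 ± 9.96 at 1 Hz, 119 ± 16.8 at 4 Hz, and 120 ± 19.5 at 10 Hz (SD, n = 6). The 3 E proteins came to 85.6 ± 9.97, 93.0 ± 4.30, 80.4 ± 5.88, and 77.3 ± 6.57 TPM in the same order. The Id sum divided by the E-protein sum was 1.37 in control (1.23 to 1.55 over libraries), 0.963 at 1 Hz (0.827 to 1.05), 1.47 at 4 Hz (1.36 to 1.64), and 1.55 at 10 Hz (1.39 to 1.90). All 6 libraries at 1 Hz lay below all 18 of the other conditions. Tcf4 read 27.2 ± 3.44 TPM at 1 Hz against 22.5 ± 3.87 in control, while its CPM was level (60.6 and 59.3). The ratio thus also carries the length correction of TPM. Control and 1 Hz libraries did not overlap in small RNA level either, and its part in the ratio was not tested. These are descriptions of transcripts, given without a test because the genes summed were chosen by name. A ratio of transcripts is not one of proteins.

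The make-up of the Id pool differed as well. Id1 and Id3 together held 61.0% of it in control (54.0% to 67.5%), 62.3% at 1 Hz (51.7% to 69.1%), 72.6% at 4 Hz (68.8% to 78.6%), and 70.9% at 10 Hz (64.7% to 75.0%). Every 4 Hz library was above every control library in this share, with 1 Hz just overlapping 4 Hz. Among the E proteins, Tcf12 held 39.3% of the pool in control, 40.5% at 1 Hz, 41.0% at 4 Hz, and 36.8% at 10 Hz. Twist1, Twist2, and Msc summed to 5.90, 6.67, 4.58, and 6.18 TPM, far below either pool.

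**Figure D4:**
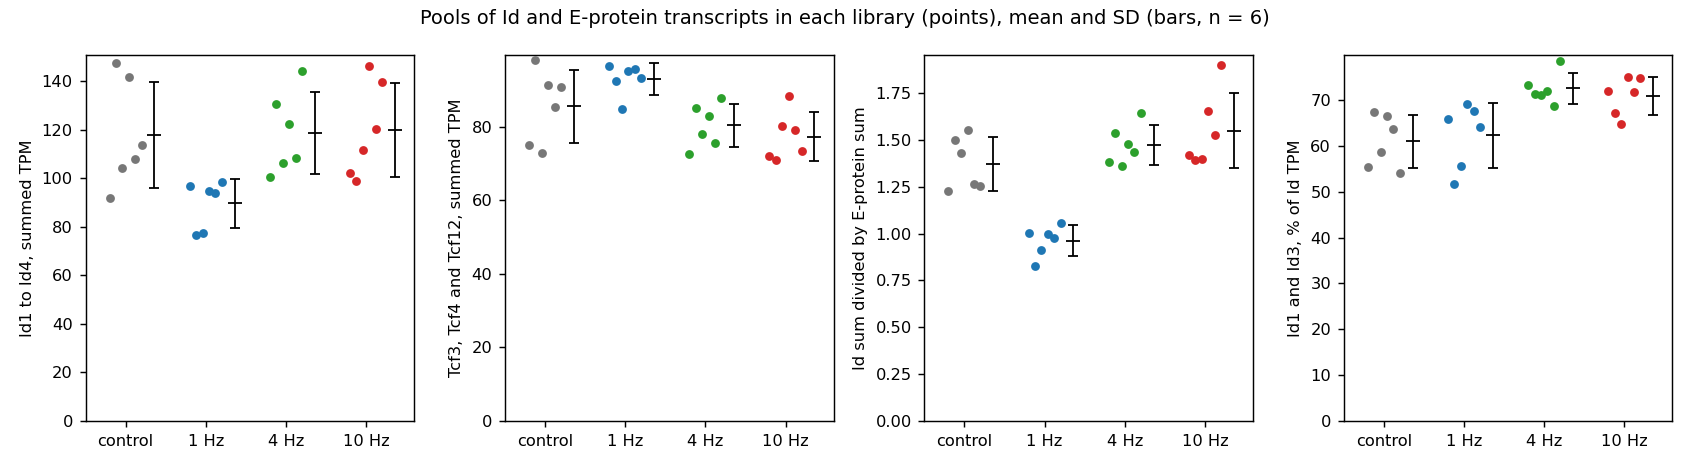
Summed TPM of the 4 Id genes, summed TPM of the 3 E proteins, the first divided by the second, and the percent of the Id sum held by Id1 and Id3 (vertical axes, each from 0), by library and condition, with the mean and SD of 6. The ratio at 1 Hz (0.827 to 1.05) lies below every library of the other conditions, and the share of Id1 and Id3 is highest at 4 Hz (72.6%).

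Within conditions the members fell into loose groups. Over the 24 libraries, with the mean of each condition removed, log2 CPM of Id1 and Id3 ran together (Pearson r = 0.814), and both ran with Tcf3 (r = 0.707 for Id1 and 0.686 for Id3). Tcf12 ran with Tcf4 (r = 0.616) and Id2 with Tcf4 (r = 0.507), whereas Id2 showed little relation to Id1 (r = 0.126) or Id3 (r = 0.049). These values are descriptions, since genes of 1 library share its depth and its base composition. The transcripts of Id1, Id3, and Tcf3 (58.5%) are GC-rich, and those of Tcf12 (42.2%), Tcf4 (42.0%), and Id2 are poorer in G and C. With the differences between conditions left in, and the members set aside, the most like genes were sought among 9057 with a mean of at least 10 CPM. Those most like Id3 over the 24 libraries were Exosc7 (r = 0.819), Mfsd12 (r = 0.804), and Pgp (r = 0.794), against r = 0.884 for Id1. With condition means removed these 3 gave 0.684, 0.820, and 0.597. Those most like Tcf12 were Gsk3b (r = 0.874), Rps6ka3 (r = 0.869), and Wwtr1 (r = 0.856), and those most like Twist2 were Prrc2a (r = 0.761), Zc3h18 (r = 0.752), and Cnot3 (r = 0.730).

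The muscle factors that the members act on did change against control. Myod1 rose from 36.1 ± 12.2 CPM in control to 81.3 ± 14.2 at 1 Hz (log2 1.17 ± 0.24, adjusted p = 0.000456) and 103 ± 23.5 at 4 Hz (1.51 ± 0.23, adjusted p = 2.15e-05), with no overlap with control in either. Myog, which drives fusion and terminal differentiation, rose at 4 Hz by 0.85 ± 0.15 and at 10 Hz by 0.62 ± 0.15. At 1 Hz Myog read 408 ± 26.0 CPM against 294 ± 67.8 in control and was not counted. A fit with the replicate number as a block gave it 0.497 there (edgeR adjusted p = 0.001955), just inside the fold limit. Myod1 at 10 Hz was not counted in the main test and gave 0.73 in the block fit (edgeR adjusted p = 0.002265), past both limits. Myf5, a factor of undifferentiated myoblasts, fell by 0.61 at 4 Hz, and Myf6 passed at no frequency against control. The 4 factors summed to 373 ± 90.4 TPM in control, 505 ± 26.8 at 1 Hz, 592 ± 51.7 at 4 Hz, and 531 ± 160 at 10 Hz, several times either modulator pool. Of 14 muscle differentiation genes, 9 rose and none fell at 1 Hz, 10 rose and none fell at 4 Hz, and 3 rose and none fell at 10 Hz. Tnni2, a fast troponin, rose from 463 ± 66.7 to 778 ± 144 CPM at 1 Hz and 1088 ± 209 CPM at 4 Hz. Mylpf, a fast myosin light chain, rose by 0.74 ± 0.13, 1.10 ± 0.13, and 0.57 ± 0.13 at the 3 frequencies. At 4 Hz against 1 Hz, where Id1 and Id3 rose, none of the 14 genes and none of the 4 factors passed both limits in either direction. In the block fit some were higher on adjusted p alone: Tnni2 (0.48, edgeR adjusted p = 0.007424), Mylpf (0.36, 0.01894), Myl1 (0.32, 0.02666), and Myog (0.37, 0.03221). Tnnt3 (0.25, 0.07317) and Myod1 (0.33, 0.07312) were not. With the correction for GC content and length, 1 of the 4 factors was counted as lower. At 10 Hz against 1 Hz, 3 of the 14 were lower (Acta1, Actn2, and Mymk, named after their values were seen) and Myf6 was higher (1.29 ± 0.318, adjusted p = 0.002581). None of these 4 calls remained with the small RNA covariate.

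These counts against control moved with the small RNA level. With it as a covariate, none of the calls of any list remained at 1 Hz, and those left at 4 Hz were 4 of the 10 muscle genes. Some values stayed past the fold limit and were lost on p alone, such as Bmp4 at 1 Hz (0.97, adjusted p = 0.2075) and Tnni2 at 1 Hz (0.59, adjusted p = 0.3234). Others shrank, such as Myod1 at 1 Hz (0.36, adjusted p = 0.7728). Over all genes 1 was counted at 1 Hz and 219 at 4 Hz in that fit. For 1 and 4 Hz against control, stimulation and this feature of the libraries cannot be told apart. At 10 Hz against 1 Hz, where only 1 Hz replicate 1 overlapped the 10 Hz libraries, 2390 genes were counted without the covariate and 178 with it. Frequency and this feature can hardly be told apart there either.

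**Figure D5:**
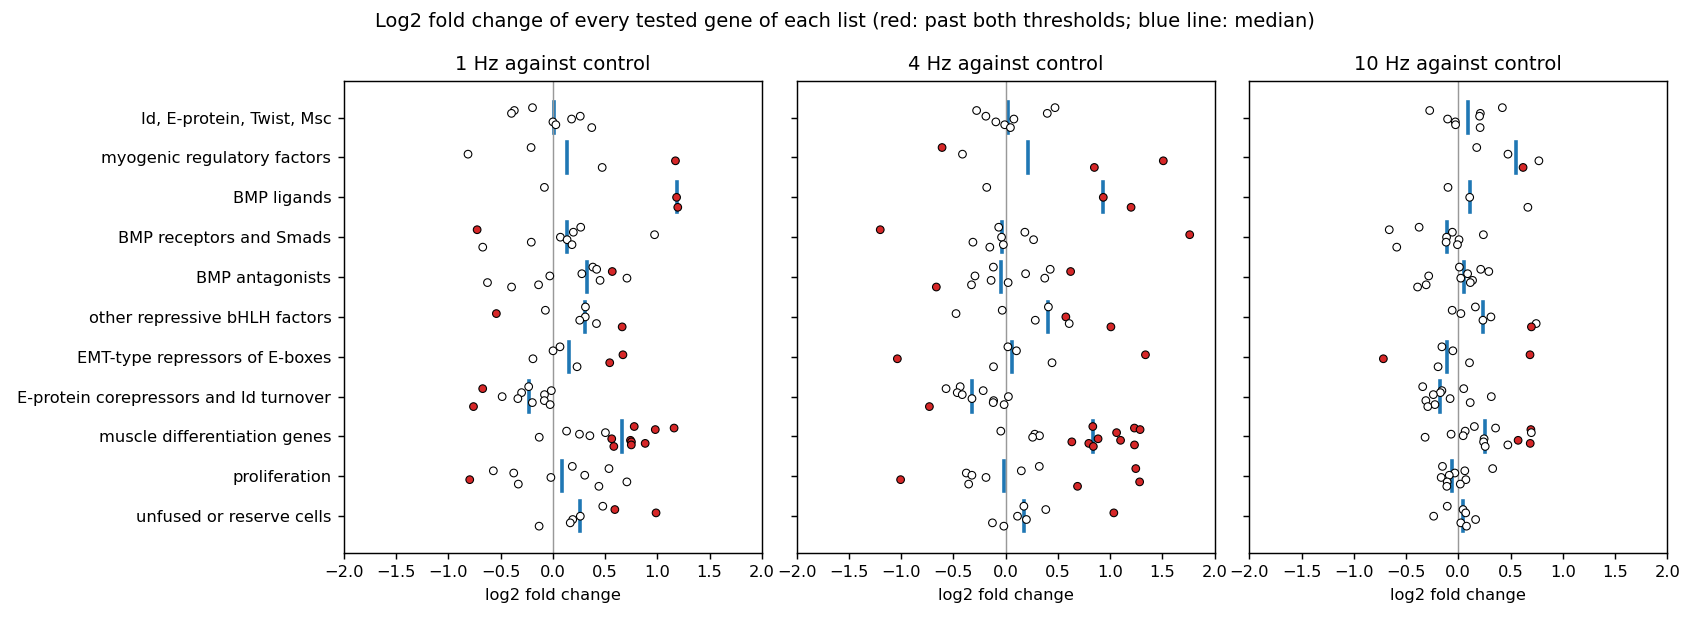
Log2 fold change against control (horizontal axis) of every tested gene of each list at 1, 4, and 10 Hz. Points are genes, red where both limits were passed, and the blue line is the median of a list. The members in the top line have no red point and medians of 0.01, 0.02, and 0.09, while 9, 10, and 3 of the 14 muscle differentiation genes are red.

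BMP signaling, the pathway best known for inducing Id genes, showed rises in ligands at the slower frequencies. Of 8 listed ligands 3 were tested. Bmp4 rose from 5.81 ± 1.99 CPM to 13.3 ± 2.15 at 1 Hz (log2 1.18 ± 0.16, adjusted p = 8.38e-06) and 11.3 ± 0.684 at 4 Hz (0.93 ± 0.16, adjusted p = 5.88e-05), and read 6.35 ± 0.496 at 10 Hz. Gdf5, a ligand of joints and tendons, rose by 1.19 ± 0.23 and 1.20 ± 0.23 at 1 and 4 Hz, and Bmp1, which despite its name is a procollagen protease, did not pass. At 10 Hz against 1 Hz, Bmp4 was lower by -1.07 ± 0.153 (adjusted p = 1.098e-05) while both Id genes were higher, and by -0.88 with the small RNA covariate (adjusted p = 0.05082). At 4 Hz against 1 Hz Bmp4 differed by -0.25 (adjusted p = 0.2817).

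Of 9 BMP receptors and Smads, the receptor Acvrl1 fell at 1 Hz (-0.73 ± 0.25) and 4 Hz (-1.20 ± 0.25), the receptor Bmpr1b rose at 4 Hz from 0.761 ± 0.416 to 2.64 ± 1.30 CPM, and none passed at 10 Hz. At 10 Hz against 1 Hz the receptor Acvr1, named after its values were seen, fell from 67.2 ± 6.66 to 43.2 ± 4.41 CPM. Of 10 tested antagonists, Fst (follistatin) rose at 1 and 4 Hz (0.57 ± 0.10 and 0.62 ± 0.10) and Twsg1 fell at 4 Hz (-0.66 ± 0.10). None of the 10 passed at 4 or 10 Hz against 1 Hz, the comparisons in which Id1 and Id3 rose and 3.00% and 17.9% of all genes were counted. With the correction for GC content and length, 1 of the 10 was higher and 1 lower at 10 Hz against 1 Hz. Smad6, an inhibitory Smad that BMP induces, also named after its values were seen, read 1.52 ± 0.746 CPM at 1 Hz, 2.32 ± 0.609 at 4 Hz, and 2.51 ± 0.937 at 10 Hz (adjusted p = 0.2185 and 0.08769 against 1 Hz). Smad7, another inhibitory Smad with a higher level (50.2 ± 8.67 CPM in control), differed to the other side. In the block fit it gave -0.20 at 4 Hz and -0.18 at 10 Hz against 1 Hz (edgeR adjusted p = 0.281 and 0.2412).

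Other repressors of the same sites were mixed. Of 7 tested basic helix-loop-helix repressors and related factors, Scx (scleraxis, a tendon factor) rose at 1, 4, and 10 Hz by 0.66 ± 0.18, 1.01 ± 0.18, and 0.70 ± 0.18. Hes6, which promotes differentiation, rose at 4 Hz (0.58 ± 0.11), and Hes1, the Notch effector, fell at 1 Hz from 27.3 ± 3.70 to 18.8 ± 3.50 CPM (-0.54 ± 0.13). Hes1 was higher at 10 Hz than at 1 Hz (0.57 ± 0.125, adjusted p = 0.0009643), and it differed by 0.07 at 4 Hz against 1 Hz (adjusted p = 0.7842). The 10 Hz value was 0.29 with the small RNA covariate (adjusted p = 0.4144) and 0.44 with the correction for GC content and length, inside the fold limit. Of 6 zinc finger and homeobox repressors, Snai1, which in myoblasts keeps MyoD off E-boxes of differentiation genes, rose at all 3 frequencies, from 15.1 ± 1.25 CPM to 23.9 ± 5.80, 38.1 ± 12.3, and 24.4 ± 5.96. Its relative Snai2 fell at 4 Hz (-1.04 ± 0.21) and 10 Hz (-0.72 ± 0.21), and Zeb1 rose at 1 Hz (0.54 ± 0.11). With the small RNA covariate, Snai1 and Snai2 at 10 Hz against control were 0.61 and -0.70 (edgeR adjusted p = 0.05223 and 0.05069). At 4 Hz against 1 Hz Snai1 was higher and Snai2 lower, also with the covariate (0.69 and -0.86, edgeR adjusted p = 0.008058 and 0.007643). Snai2 was lower at 10 Hz than at 1 Hz, a call that did not remain with the covariate (edgeR adjusted p = 0.2527).

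Of 11 tested corepressors, coactivators, and turnover factors, Usp1, the deubiquitinase that stabilizes Id proteins, fell from 57.2 ± 7.84 CPM to 33.8 ± 7.08 at 1 Hz (-0.76 ± 0.14, adjusted p = 0.000251) and 34.5 ± 7.30 at 4 Hz (-0.73 ± 0.14, adjusted p = 0.000241). None passed at 10 Hz against control. Hdac1, a corepressor of MyoD, read 39.5 ± 5.96 CPM in control and 28.0 ± 3.12 at 1 Hz, and was higher at 4 Hz (40.1 ± 2.18, log2 0.51 ± 0.101, adjusted p = 0.00175) and 10 Hz (49.0 ± 6.46, 0.80 ± 0.101, adjusted p = 2.409e-06) than at 1 Hz. The 4 Hz value was 0.47 with the correction for GC content and length, inside the fold limit, and the 10 Hz value was 0.55 with the small RNA covariate (adjusted p = 0.04745). It was the only gene of this list besides Cbfa2t3 (0.72 at 10 Hz, named after its values were seen) to pass in a comparison in which Id1 and Id3 rose.

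Markers of cells that could carry Id transcripts were read beside the members. Of 10 proliferation genes, 1 fell at 1 Hz, 3 rose and 1 fell at 4 Hz, and none passed at 10 Hz. Those that rose were Top2a (0.69 ± 0.228), Mki67 (1.28 ± 0.459), and Ccna2 (1.25 ± 0.450), the last 2 named after their values were seen. At 4 Hz against 1 Hz Ccnb1 was higher and E2f1 lower, and at 10 Hz against 1 Hz Ccnb1 and Mcm5 were higher, again named after their values were seen. With the small RNA covariate both calls remained at 4 Hz and neither at 10 Hz. Mcm5, of the replicative helicase, fell at 1 Hz (-0.80 ± 0.28) and 4 Hz (-1.01 ± 0.28), and its sign turned in the fit with the small RNA covariate. Of 7 tested genes of unfused or reserve cells, Pax7 rose from 1.86 ± 1.24 to 3.72 ± 1.01 CPM at 1 Hz and 3.84 ± 1.41 CPM at 4 Hz, and Itga7 rose at 1 Hz. Itga7 read 624 ± 77.8 CPM in control, far above Pax7, and whether it marked unfused cells here was not tested. At 4 Hz against 1 Hz none of these 7 passed, and at 10 Hz against 1 Hz 3 were lower, none of which remained with the small RNA covariate and 1 with the correction for GC content and length. Of 7 tested mesenchymal genes, Pdgfrb rose at 1 and 4 Hz (1.38 ± 0.35 and 1.81 ± 0.34), Col3a1 rose at 1 Hz, and Dcn fell at 4 Hz. At 4 Hz against 1 Hz none of these 7 passed, and at 10 Hz against 1 Hz 4 were lower and none higher. Of those 4, 1 remained with the small RNA covariate and 4 with the correction for GC content and length. Of 10 markers of endothelial, immune, epithelial, and neural cells, Ptprc, Adgre1, Epcam, and Rbfox3 reached 0.209 CPM at most, and Cdh5 and Kdr 0.354 CPM. Pecam1 and Krt8 reached 1.69 and 1.67 CPM at most. Cd68 (67.8 to 113 CPM) and Tubb3 (17.5 to 53.8 CPM), which other cells also express, were present and passed in no comparison. The part of other cells in the Id values was not tested.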

How the data were processed

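RNA of 24 tissues was measured, 6 per condition, grouped by sample title. Poly(A) RNA was made into directional libraries and sequenced as paired-end reads. Low-input samples were ribodepleted, and the sources used here do not say which. Per the labels and the study's methods, the authors used nf-core/rnaseq with STAR and Salmon on GRCm39. The deposited values are Salmon estimated counts (expected counts, not normalized, 6.62% to 10.6% per library not whole) and TPM, which the authors scaled to a fixed sum per library.

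Estimated counts were rounded and filtered with filterByExpr (13318 of 56941 genes, 99.8% of counts). edgeR 4.0.16 (R 4.3.3) fitted 1 quasi-likelihood model to the 24 libraries, with condition alone as a term, TMM scaling, and 6 contrasts. SEs are log2 fold changes divided by the root of F, and intervals are 95%. Id4 and Twist1, which failed the filter, were compared by exact permutation of CPM. DESeq2 1.42.0, limma 3.58.1 on log2(TPM + 1), other scalings and filters, a replicate block, the small RNA level as a covariate, and leaving out each library were run as alternatives. The scripts were tested on simulated data. The text names all members, the 4 muscle factors, and the 3 genes most like the leading member of each class. From each other list, up to 4 genes by smallest adjusted p against control and its most abundant gene could be named. Not all of these are named, and those left out passed both limits at no frequency against control. Further genes are those said to be named after their values were seen. Values of low genes (such as Id4) carry large counting error. Members and lists were chosen with earlier results of these data known. Libraries of 1 condition differed beyond counting noise, and p-values cover the spread between tissues of 1 cell line. Positions are from GENCODE M39, promoter windows from RefSeq.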

Additional observations from a re-analysis of the deposited data

Results flagged for a closer look

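In 2 of the 44 groups of 6 libraries examined, 1 library stood far from the others. Chance alone sets about 1 in 20 such groups apart. For Tcf12, control replicate 6 read 110 CPM (109.64), and the next control library read 91.3 CPM. For Twist1, control replicate 2 read 0.168 CPM, which is 1 count, and the other 5 control libraries were at 0.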

How the results depend on the processing

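A call needs both limits, except in the alternative that used the adjusted p alone. That alternative was the only 1 to change Id2 at 1 and 4 Hz against control and Tcf12 at 10 Hz against 1 Hz. Of 48 member comparisons tested, 42 kept their call under every alternative in which they were tested (12 for Twist2 and Msc, 13 for the others) and 45 under each left-out library. For most of them this meant staying uncalled, since 4 were called in the main test. Of those 4, Id1 at 4 Hz against 1 Hz and Id3 at 10 Hz against 1 Hz each lost the call under 1 alternative. The latter also lost it without 10 Hz replicate 4. No called value reversed. Values could still move, as Id1 and Id3 at 1 Hz against control to -0.64 and -0.65 with the small RNA covariate. With the adjusted p alone, 1 member passed at 1 Hz against control (Id2) and 2 passed at 4 Hz against control (Id1 and Id2). With no filter on counts, 2 members passed at 4 Hz against control (Id1 at 0.51 and Id4). On log2(TPM + 1) with no filter, 1 member passed at 4 Hz against 1 Hz, since Id1 had an adjusted p of 0.09746, and with the small RNA covariate 1 passed at 10 Hz against 1 Hz (Id1). The cause was not tested. Leaving out 1 library gave 0 to 3 members at 4 Hz against control, 1 to 2 at 10 Hz against 1 Hz, and 0 to 1 at 10 Hz against 4 Hz. Besides Id1 and Id3, the added gene was Id4, which entered the test in 19 of 24 such fits. It was lower at 4 Hz than in control in 19 of 19 (log2 -2.48 to -1.93). Id4 failed the filter without control replicate 1, 3, or 5, 1 Hz replicate 2, or 10 Hz replicate 2, all libraries where it read high. Id4 also failed the filter in the main fit, with all 24 libraries. It thus entered only where another library was left out and all of those were kept. The fits share most libraries, so this count adds no support. Id4 also passed at 10 Hz against 4 Hz in 3 of 19, without 4 Hz replicate 2 or 10 Hz replicate 4 or 6. Id3 passed at 4 Hz against control without control replicate 4. Mcm5 turned its direction with the covariate, reading 0.35 at 1 Hz and 0.0906 at 4 Hz, each against control, and -0.24 between 10 and 1 Hz. The Id to E-protein ratio without each library in turn was 1.33 to 1.40 in control, 0.944 to 0.990 at 1 Hz, 1.44 to 1.49 at 4 Hz, and 1.48 to 1.58 at 10 Hz.

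Replicate numbers are shared by the titles and did not pair the libraries. The correlation of deviations exceeded 0.1 in 0 to 3 of 6 pairs per comparison. With the replicate number as a block, no member changed its call. Id1 and Id3 then gave 0.67 and 0.79 at 4 Hz against 1 Hz and 0.63 and 0.59 at 10 Hz against 1 Hz.

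Depth limits Id4, Twist1, Twist2, and Msc, with 149, 6, 623, and 301 counts over all libraries.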
